A study of Homo sapiens with 18 samples.

Results

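ATF3 and 9 other genes of the integrated stress response were followed through MCF-10A cells that carried a splicing factor construct or an empty vector. The 10 genes were ATF3, ATF4, DDIT3, CHAC1, TRIB3, ASNS, SESN2, PPP1R15A, CEBPB and ALDH1L2, out of 60252 genes in the count table, and all 10 were among the 21326 genes with enough counts to be tested. They were taken from the known ATF4 pathway, with ATF3 as the lead because its mean lay below Control in all 5 overexpression groups. That choice used the contrasts with Control, so ATF3's difference from Control is given as a description with no test.

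MCF-10A is an immortalised, non-tumorigenic human mammary epithelial line. The cells grew for 8 days in Matrigel, a basement membrane gel in which they form hollow spheres, before RNA was taken. Control carried the empty retroviral vector PWZL, and the groups SRSF2-OE, SRSF4-OE, SRSF6-OE, SRSF9-OE and TRA2B-OE (OE, overexpression) stably carried a retroviral construct with that factor's coding sequence. Every group, Control included, had thus been through retroviral transduction, and whether a line was a pool or a clone was not given in the sources used here. Replicates 1 and 2 were sequencing lanes of a single library in 4 groups (Control, TRA2B-OE, SRSF4-OE and SRSF6-OE), so they were summed, named replicate 1-2 and counted once. This left 14 libraries of 42959069 to 121601376 counts, 3 for SRSF9-OE, 3 for SRSF2-OE and 2 for each other group. The summed libraries carry a library ID in the labels and the other 10 carry numeric labels, and these label sets were a term in the model.

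The integrated stress response begins with kinases that phosphorylate the translation factor eIF2 when amino acids run short, unfolded protein builds up, haem is lacking or viral RNA is sensed. General translation then falls while the mRNA of the transcription factor ATF4 is translated more, and ATF4 switches on genes for amino acid synthesis, uptake and tRNA charging. ATF3 and DDIT3 (CHOP) are transcription factors induced further along, and PPP1R15A (GADD34) directs the phosphatase that reverses eIF2 phosphorylation. ATF3 is also an immediate early gene that other stress, growth factor and p53 signals can induce without ATF4.

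Sequence upstream of these genes was searched for elements through which the pathway is known to act, and is printed here for the members whose promoter held a match. RefSeq promoter windows (GRCh38.p14, 250 bases before to 50 after a start site) were matched for 9 of the 10 genes (not ALDH1L2), 16 windows in all. Both strands were searched for TGATGNAA, the C/EBP-ATF response element bound by ATF4, and for TGACGTCA, the cyclic AMP response element bound by ATF and CREB proteins; no window of these genes held both. The first was present in 3.62% of all 35116 windows and the second in 1.85%, and by gene in 4.46% and 2.25%. The windows of ATF4, DDIT3, TRIB3, SESN2 and CEBPB held no match to either. In the lines below the capitals mark the match and the surrounding bases lie upstream of the start site.
ATF3 (chr1:212565186-212565253, + strand): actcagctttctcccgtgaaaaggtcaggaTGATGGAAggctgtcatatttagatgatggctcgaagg
CHAC1 (chr15:40953232-40953299, + strand): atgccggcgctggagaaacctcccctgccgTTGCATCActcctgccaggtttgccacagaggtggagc
ASNS (chr7:97872439-97872506, - strand): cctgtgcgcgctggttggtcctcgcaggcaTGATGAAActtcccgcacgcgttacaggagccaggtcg
PPP1R15A (chr19:48872333-48872400, + strand): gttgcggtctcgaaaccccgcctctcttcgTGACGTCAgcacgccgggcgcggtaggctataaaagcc
A match to the ATF4 element lay at -191 to -184 from a start site of ATF3, -209 to -202 in CHAC1 (read on the opposite strand) and -68 to -61 from a start site of ASNS. PPP1R15A instead held a match to the cyclic AMP response element, at -58 to -51. A match describes letters in the window and not a bound site.

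CPM here means counts per normalised library size, from the library totals and TMM factors. Before the stress genes, the labels were checked against the factors. SRSF4 and SRSF9 were higher in each of their own libraries than in any other library, as was SRSF2 in SRSF2-OE replicates 2 and 3 and TRA2B in TRA2B-OE replicate 1-2. SRSF2 in the library labelled SRSF2-OE replicate 1 (214 CPM) lay within the 176 to 272 CPM of the other groups, TRA2B in the library labelled TRA2B-OE replicate 3 (147 CPM) within 105 to 168 CPM, and SRSF6 in both SRSF6-OE libraries (417 and 283 CPM) within 237 to 448 CPM. Basal markers of MCF-10A were present in every library, with KRT5 at 7079 to 20009 CPM and TP63 at 113 to 255 CPM. Of 7 luminal markers, KRT8 (87.2 to 176 CPM), KRT18 (92.6 to 272 CPM) and GATA3 (9.41 to 29.2 CPM) were present, ESR1, FOXA1 and KRT19 reached at most 2.54, 1.46 and 0.844 CPM, and PGR was at 0 in 13 of 14 libraries. Endothelial CDH5 and VWF, leukocyte PTPRC and CD3E, and fibroblast COL1A2, COL3A1 and LUM were at 0 to 0.366 CPM. Leukocyte CD68 (0.172 to 1.22 CPM) and fibroblast PDGFRB (0.129 to 2.68 CPM) were low but at 0 in no library. The secreted matrix genes COL1A1 (44.0 to 278 CPM) and DCN (6.30 to 413 CPM) were present. Mitochondrially encoded genes took 6.45% (SRSF6-OE replicate 3) to 16.4% (SRSF2-OE replicate 1) of counts.

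ATF3 encodes a transcription factor that can repress or activate its targets, and its level was high in a single library. Control replicate 1-2 held 79.3 CPM of ATF3 and Control replicate 3 held 6.71 CPM, so the Control libraries themselves lay far apart. The lanes of the high Control library agreed, at 83.3 and 76.1 CPM. ATF3 stood at 1.09, 2.26 and 1.69 CPM in SRSF2-OE replicates 1, 2 and 3, and at 1.15 and 1.81 CPM in SRSF4-OE replicates 1-2 and 3. The lowest value of each of these groups, 1.09 and 1.15 CPM, was also among the lowest of all. It stood at 3.72 and 8.18 CPM in SRSF6-OE replicates 1-2 and 3. It stood at 3.60, 3.16 and 2.85 CPM in SRSF9-OE replicates 1, 2 and 3, and at 2.73 and 1.62 CPM in TRA2B-OE replicates 1-2 and 3. All libraries of SRSF2-OE, SRSF4-OE, SRSF9-OE and TRA2B-OE lay below both Control libraries, while SRSF6-OE replicate 3 lay above Control replicate 3. Such separation from Control, here and for the partners below, is a description from 2 or 3 libraries against 2. Its share over all genes was not computed.

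In order of mean level, ATF3 was 1.48 ± 0.469 CPM (SD, n = 2) in SRSF4-OE, 1.68 ± 0.588 CPM (n = 3) in SRSF2-OE, 2.17 ± 0.788 CPM (n = 2) in TRA2B-OE, 3.20 ± 0.373 CPM (n = 3) in SRSF9-OE, 5.95 ± 3.16 CPM (n = 2) in SRSF6-OE and 43.0 ± 51.3 CPM (n = 2) in Control. Among neighbours in this order the libraries of SRSF4-OE, SRSF2-OE and TRA2B-OE overlapped, those of SRSF9-OE lay above all of TRA2B-OE, those of SRSF6-OE above all of SRSF9-OE, and SRSF6-OE and Control overlapped. Lower levels could reflect fewer cells with the transcript or less of it per cell, which bulk RNA cannot tell apart. Fitted log2 fold changes against Control, adjusted for label set, were -4.22 ± 0.94 (SE) in SRSF2-OE, -4.60 ± 1.01 in SRSF4-OE, -2.54 ± 0.95 in SRSF6-OE, -3.29 ± 0.94 in SRSF9-OE and -4.14 ± 0.95 in TRA2B-OE. The size of each rested on Control replicate 1-2: without that library they were -2.002, -1.995, -0.041, -1.06 and -1.37, and without Control replicate 3 they were -5.92, -5.95, -3.97, -4.99 and -5.30. Within the libraries with a library ID, ATF3 in the overexpression libraries was 0.0145 to 0.0469 of Control replicate 1-2. Within the numeric label set it was 0.162 to 1.22 of Control replicate 3, the highest being SRSF6-OE replicate 3.

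**Figure D1:**
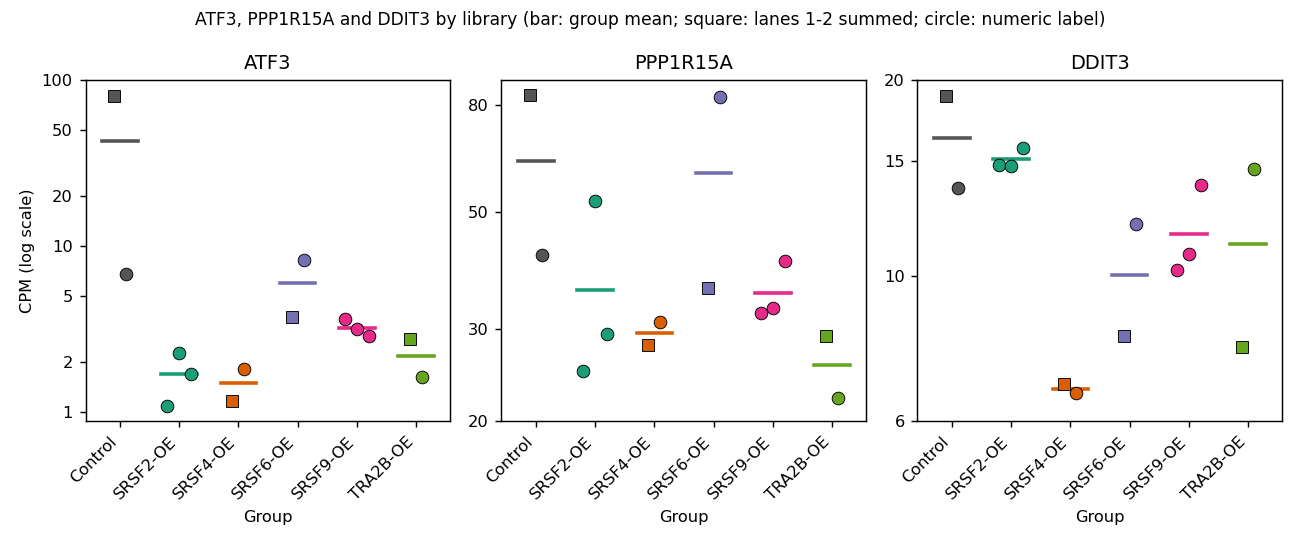
CPM of ATF3, PPP1R15A and DDIT3 (log axes) in each of the 14 libraries, arranged by group, with bars at the group means, squares for libraries made of summed lanes and circles for libraries with numeric labels. For ATF3 a single Control library, at 79.3 CPM, stands above all others, which lie between 1.09 and 8.18 CPM.

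Among the overexpression groups alone, a comparison that the choice of ATF3 did not use, ATF3 did not pass edgeR's quasi-likelihood F test (adjusted p = 0.547). None of the 10 genes did, with adjusted p = 0.481 for DDIT3, the lowest, to 0.946 for CEBPB, where 0.0375% of all genes tested were called (8 of 21326). At an unadjusted p under 0.05 the count of the 10 was also 0, where 11% of all genes fell under it. DESeq2's likelihood ratio test, which called 4.19% of all genes, called 0 of the 10. Its unadjusted p was under 0.05 for ATF3 (0.034, adjusted 0.257) and DDIT3 (0.049, adjusted 0.305), as it was for 15.9% of all genes.

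Against Control, edgeR called 0 of the 9 partners in each of the 5 groups. The shares of all genes called were 0% in SRSF2-OE, SRSF4-OE and SRSF9-OE, 0.00469% in SRSF6-OE and 0.00938% in TRA2B-OE. DESeq2 called DDIT3 in SRSF4-OE and no other partner in any group, where it called 2.37% of all genes in SRSF2-OE, 2.7% in SRSF4-OE, 5.81% in SRSF6-OE, 0.0703% in SRSF9-OE and 2.12% in TRA2B-OE. When only Control and SRSF4-OE were fitted, edgeR called DDIT3, CHAC1 and TRIB3 (12.2% of all genes), and with only Control and SRSF6-OE it called TRIB3 (0.744%). With lanes as separate replicates, edgeR called DDIT3 and PPP1R15A in SRSF4-OE (16.5% of all genes) and in TRA2B-OE (13.8%), and DDIT3 in SRSF6-OE (19.2%). Lanes of a library are not independent replicates, and a fit of only the groups compared holds few libraries. Nothing is therefore read from the calls of these alternatives. Because ATF3 was chosen from these contrasts, the partners' values in them are given below as descriptions.

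PPP1R15A encodes GADD34, the subunit that returns eIF2 to its unphosphorylated state. By Pearson's r it was the only partner that passed in correlation with ATF3 over the overexpression libraries. That relation rested on the libraries farthest from the median of ATF3, as given below. Control replicates 1-2 and 3 held 83.7 and 41.4 CPM of PPP1R15A. SRSF2-OE replicates 1, 2 and 3 held 24.9, 52.5 and 29.3 CPM, SRSF4-OE held 27.9 and 31.0 CPM, and SRSF6-OE held 35.9 and 83.0 CPM. SRSF9-OE held 32.1, 32.8 and 40.4 CPM, and TRA2B-OE held 29.1 and 22.1 CPM. The highest levels were thus in Control replicate 1-2 and SRSF6-OE replicate 3, the same libraries that were highest in ATF3. SRSF4-OE, SRSF9-OE and TRA2B-OE lay wholly below Control, and SRSF2-OE and SRSF6-OE overlapped it. For SRSF9-OE the gap was narrow, 40.4 CPM in replicate 3 against 41.4 CPM in Control replicate 3. Log2 fold changes were -0.80, -1.09, -0.07, -0.82 and -1.29 in SRSF2-OE, SRSF4-OE, SRSF6-OE, SRSF9-OE and TRA2B-OE, each with an SE of 0.47 to 0.48; without Control replicate 1-2 they were -0.22, -0.30, 0.64, -0.23 and -0.49.

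Whether the partners followed ATF3 was asked over libraries, on log2(CPM + 0.5), with p adjusted over the 9 partners. Over the 12 overexpression libraries, which hold no Control and so none of the contrasts that chose ATF3, PPP1R15A correlated with ATF3 at r = 0.78 (permutation p = 0.0045, adjusted p = 0.040) and rho = 0.79 (permutation p = 0.0034). Without the 2 of these libraries farthest from the median of ATF3 (SRSF2-OE replicate 1 and SRSF6-OE replicate 3), r was 0.42 (permutation p = 0.23), so this relation rests on those libraries. Over all 14 libraries, which include the Control values that chose ATF3, r was 0.81 (permutation p = 0.00046, adjusted p = 0.0041) and rho 0.84 (permutation p = 0.00036, adjusted p = 0.0032). These 14-library values are not independent of that choice. Without Control replicate 1-2 and SRSF6-OE replicate 3, the libraries farthest from the median of all 14, r was 0.58 (permutation p = 0.047, adjusted p = 0.42). Within the 10 libraries with numeric labels r was 0.76 (permutation p = 0.010, adjusted p = 0.090), and the 4 with a library ID were too few for a value.

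No other partner passed by Pearson's r. Over the 14 libraries r was 0.41 for DDIT3, -0.32 for SESN2, -0.23 for TRIB3, 0.07 for ATF4, 0.06 for ASNS, 0.0032 for CEBPB and -0.02 for ALDH1L2 (adjusted p = 0.664 for DDIT3, 0.808 for SESN2 and 0.991 for the other 5, permutation tests). Over the 12 overexpression libraries r was 0.64 for ALDH1L2, 0.63 for ASNS and 0.61 for TRIB3, each at adjusted p = 0.075 in a permutation test, and in Spearman's rank correlation ALDH1L2 reached rho = 0.78 (permutation p = 0.0038, adjusted p = 0.017). Without the 2 libraries farthest from the median, r fell to 0.50 for ALDH1L2, 0.22 for ASNS and 0.32 for TRIB3. CHAC1 has no pooled value because its libraries fell into separate sets, 11 at up to 2.57 CPM and 3 at 16.9 CPM or more; within the 11, r was -0.22 (permutation p = 0.51).

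**Figure D2:**
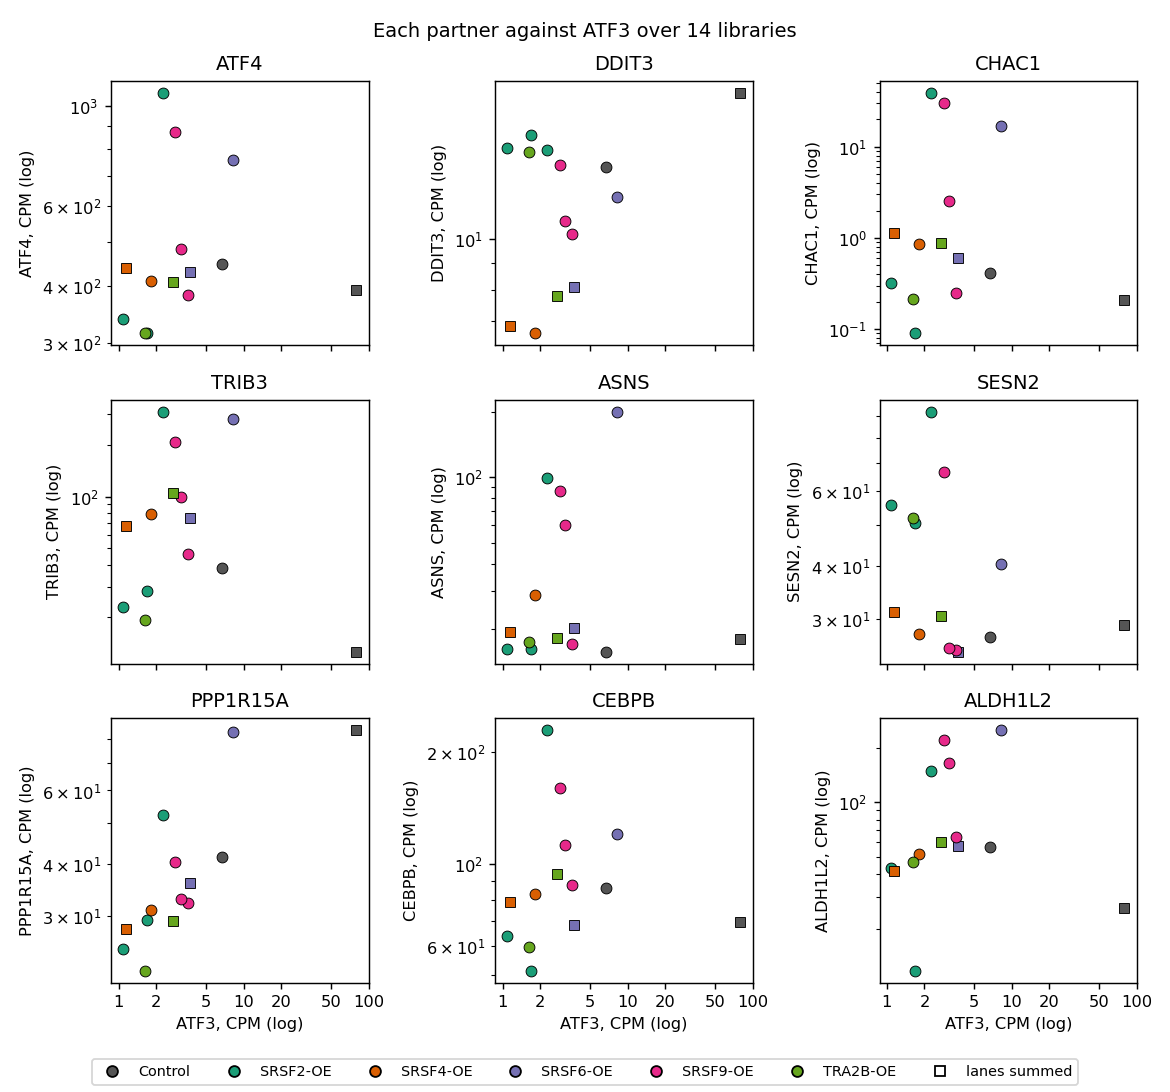
CPM of each of the 9 partners (vertical, log axis) against CPM of ATF3 (horizontal, log axis) in the 14 libraries, coloured by group, squares marking libraries of summed lanes. PPP1R15A rises along with ATF3 (r = 0.81), while CHAC1, TRIB3 and ASNS are high in libraries with 2.26 to 8.18 CPM of ATF3 and low in the Control library with 79.3 CPM.

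DDIT3, which encodes the pro-apoptotic factor CHOP, was highest in Control replicate 1-2 and had its lowest mean in SRSF4-OE, as did ATF3, over a narrower range. It held 18.9 and 13.7 CPM in Control replicates 1-2 and 3, and 14.8, 14.7 and 15.7 CPM in SRSF2-OE replicates 1, 2 and 3. It held 6.84 and 6.63 CPM in SRSF4-OE, 8.10 and 12.01 CPM in SRSF6-OE, 10.2, 10.8 and 13.8 CPM in SRSF9-OE, and 7.80 and 14.6 CPM in TRA2B-OE. SRSF4-OE and SRSF6-OE lay wholly below Control, while SRSF2-OE, lowest but one in mean ATF3, lay within its range. The log2 fold changes were -0.25, -1.29, -0.74, -0.63 and -0.60 (SE 0.30 each), and -1.29 in SRSF4-OE became -0.73 without Control replicate 1-2. DDIT3 overlaps MARS and MBD6 on the opposite strand and AC022506.1 and MIR616 on its own, so where counting did not use strand its reads could be shared.

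ATF4 encodes the master regulator of the pathway, whose own control is largely at translation. Its mRNA stood at 392 and 447 CPM in Control replicates 1-2 and 3. In SRSF2-OE replicates 1, 2 and 3 it stood at 339, 1065 and 315 CPM, and in SRSF9-OE replicates 1, 2 and 3 at 382, 483 and 873 CPM. SRSF6-OE held 430 and 760 CPM, SRSF4-OE 438 and 411 CPM, and TRA2B-OE 408 and 315 CPM. A single library was high in each of SRSF2-OE, SRSF9-OE and SRSF6-OE, with the rest of those groups near or below Control, so every group overlapped Control. Log2 fold changes of ATF4 were 0.38, 0.02, 0.49, 0.40 and -0.20 in SRSF2-OE, SRSF4-OE, SRSF6-OE, SRSF9-OE and TRA2B-OE (SE 0.57 to 0.58), and the first was -0.42 without SRSF2-OE replicate 2. CEBPB, a bZIP transcription factor that can dimerise with ATF4 and CHOP, had the same 3 libraries on top: 230 CPM in SRSF2-OE replicate 2, 161 CPM in SRSF9-OE replicate 3 and 120 CPM in SRSF6-OE replicate 3, against 51.5 to 113 CPM in the other 11. CEBPB overlaps the antisense gene CEBPB-AS1.

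CHAC1, which encodes an enzyme that degrades glutathione, showed the same libraries most sharply. It was at 38.9 CPM in SRSF2-OE replicate 2, 30.1 CPM in SRSF9-OE replicate 3 and 16.9 CPM in SRSF6-OE replicate 3. SRSF9-OE replicate 2 followed at 2.57 CPM, and the remaining libraries held 0.09 to 1.13 CPM, Control being at 0.21 and 0.41 CPM. The fitted log2 fold changes of 5.12 ± 2.93 in SRSF2-OE, 4.57 ± 2.89 in SRSF6-OE and 4.86 ± 2.90 in SRSF9-OE were -0.84 without SRSF2-OE replicate 2, 0.75 without SRSF6-OE replicate 3 and 1.91 without SRSF9-OE replicate 3. In SRSF4-OE and TRA2B-OE they were 1.85 ± 2.61 and 1.15 ± 2.68.

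TRIB3 encodes a pseudokinase that binds ATF4 and restrains it. Control replicates 1-2 and 3 held 12.5 and 38.2 CPM of TRIB3, the summed library being the lowest of all 14 libraries. SRSF2-OE held 22.8, 311 and 28.3 CPM, SRSF4-OE 67.8 and 79.5 CPM, SRSF6-OE 75.4 and 281 CPM, SRSF9-OE 46.6, 99.8 and 207 CPM, and TRA2B-OE 104 and 19.2 CPM. Every library of SRSF4-OE, SRSF6-OE and SRSF9-OE lay above both Control libraries, unlike SRSF2-OE and TRA2B-OE, which overlapped them. The log2 fold changes were 2.13, 1.64, 2.80, 2.09 and 1.55 in SRSF2-OE, SRSF4-OE, SRSF6-OE, SRSF9-OE and TRA2B-OE, with SEs of 1.30 to 1.43; in SRSF2-OE it was -0.11 without replicate 2. In the Control library where ATF3 was highest, TRIB3 was thus at its lowest.

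ASNS makes asparagine and ALDH1L2 is a mitochondrial enzyme of folate metabolism. ASNS stood at 18.02 and 15.8 CPM in Control, and at 200 CPM in SRSF6-OE replicate 3, 99.6 CPM in SRSF2-OE replicate 2, 86.0 CPM in SRSF9-OE replicate 3 and 60.3 CPM in SRSF9-OE replicate 2. The other 8 overexpression libraries held 16.2 to 28.9 CPM of ASNS. ALDH1L2 stood at 26.1 and 56.4 CPM in Control replicates 1-2 and 3, and the same 4 libraries were its highest, at 249, 148, 220 and 164 CPM in that order. The other 8 held 11.8 to 63.9 CPM of ALDH1L2, the lowest being SRSF2-OE replicate 3. In both genes SRSF9-OE replicate 2 thus joined the 3 libraries that led in CHAC1. The log2 fold changes of ASNS were 0.90, 0.41, 2.31, 1.20 and 0.06 in SRSF2-OE, SRSF4-OE, SRSF6-OE, SRSF9-OE and TRA2B-OE (SE 1.05 to 1.17), and those of ALDH1L2 were 0.42, 0.28, 1.78, 1.56 and 0.57 (SE 0.93 to 0.98). Without SRSF2-OE replicate 2 the SRSF2-OE value was -0.54 for ASNS and -0.88 for ALDH1L2, and without SRSF6-OE replicate 3 the SRSF6-OE value was 0.31 and 0.71. ASNS overlaps a non-coding transcript and a pseudogene, and ALDH1L2 overlaps C12orf45 on the opposite strand.

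SESN2 encodes a leucine sensor that restrains mTORC1 and is a target of both ATF4 and p53. It stood at 28.9 and 27.1 CPM in Control. SRSF2-OE replicates 1, 2 and 3 held 55.5, 92.4 and 50.4 CPM, and TRA2B-OE replicates 1-2 and 3 held 30.5 and 51.8 CPM. SRSF9-OE held 25.4, 25.5 and 66.6 CPM, SRSF6-OE 25.0 and 40.3 CPM, and SRSF4-OE 31.2 and 27.7 CPM. All of SRSF2-OE and TRA2B-OE lay above Control, and SRSF2-OE had the largest log2 fold change, 1.08 ± 0.49. SRSF2-OE replicate 1 and TRA2B-OE replicate 3, whose factor was not above other libraries and whose mitochondrial shares were the highest (16.4% and 14.3%), were among the 5 highest for SESN2 while low in CHAC1, TRIB3 and ATF4. The part of that share in the SESN2 level was not tested.

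**Figure D3:**
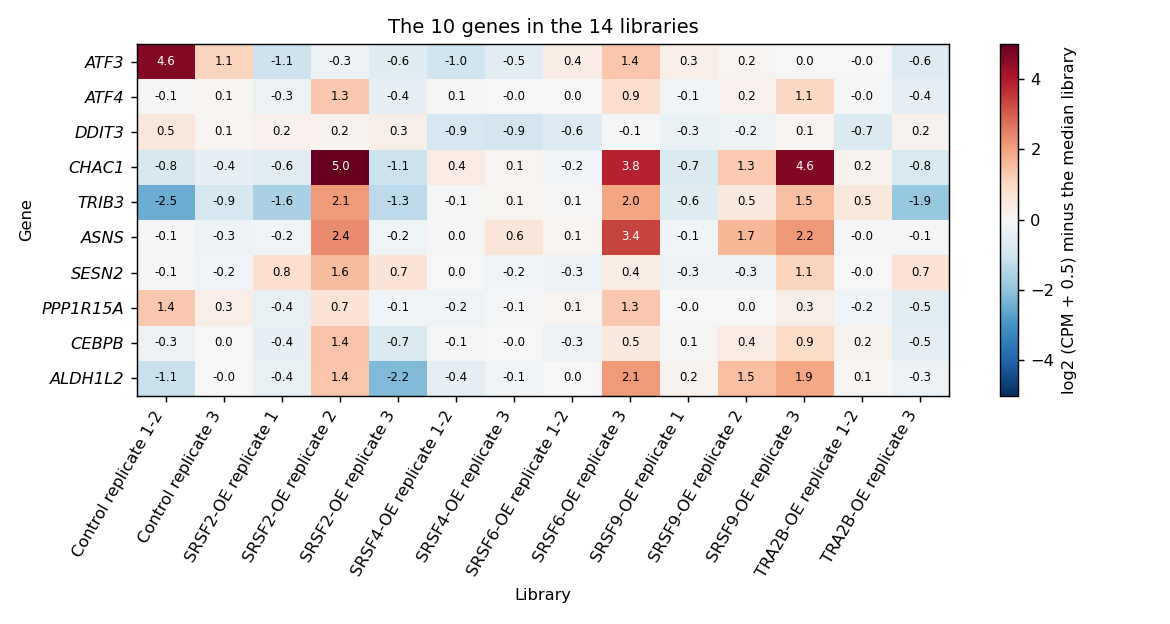
Level of the 10 genes (rows) in the 14 libraries (columns) as log2(CPM + 0.5) minus the gene's median over libraries. ATF3 is high in Control replicate 1-2, where TRIB3 is lowest, and CHAC1, TRIB3, ASNS, ALDH1L2, CEBPB and ATF4 are high in SRSF2-OE replicate 2, SRSF6-OE replicate 3 and SRSF9-OE replicate 3.

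The wider pathway was described through lists of its other genes, by counts and medians of log2 fold changes that were chosen with these data known and carry no test of the list. edgeR called 0 of the 117 tested genes of these lists in each contrast with Control, where it called at most 0.00938% of all genes. DESeq2 called 2 of them in SRSF2-OE (1.71%), 2 in SRSF4-OE (1.71%), 5 in SRSF6-OE (4.27%), 0 in SRSF9-OE and 1 in TRA2B-OE (0.855%), in each group a smaller share than its 2.37%, 2.7%, 5.81%, 0.0703% and 2.12% of all genes. These calls, named here after their values were seen, were the ER chaperone SDF2L1, higher in SRSF2-OE, SRSF4-OE, SRSF6-OE and TRA2B-OE (DESeq2 adjusted p = 0.020, 0.039, 0.026 and 0.012), and DDIT4, an inhibitor of mTORC1, higher in SRSF2-OE and SRSF6-OE (0.049 and 0.033). SLC1A5 and VEGFA were higher in SRSF6-OE (0.031 and 0.044), XPC was lower there (0.0062), and the autophagy receptor SQSTM1 was lower in SRSF4-OE (0.0063). A list gene counted as above Control, here and below, had a fitted log2 fold change over 0, whatever the overlap of its libraries. Of all 21326 genes tested, 11311 were so in SRSF2-OE, 9993 in SRSF4-OE, 10207 in SRSF6-OE, 10709 in SRSF9-OE and 10648 in TRA2B-OE. Genes of serine, glycine, one-carbon and proline synthesis were above Control in 12 of 12 members for SRSF2-OE, 10 in SRSF4-OE, 11 in SRSF6-OE, 11 in SRSF9-OE and 12 in TRA2B-OE. Their median log2 fold changes were 0.61, 0.38, 1.04, 0.81 and 0.56, where those of all tested genes were 0.04, -0.04, -0.03, 0.0018 and -0.00065. PHGDH, the entry enzyme of serine synthesis, and CBS, of the transsulfuration pathway, were the highest of the list by mean log2 fold change, and GOT1 and ALDH18A1 the lowest. Together the list summed to 1157 CPM in SRSF6-OE replicate 3, 1040 CPM in SRSF2-OE replicate 2 and 991 CPM in SRSF9-OE replicate 3, and to 355 CPM in Control replicate 1-2, the lowest. Control replicate 3 summed to 491 CPM. SRSF9-OE replicate 1 and SRSF4-OE replicate 1-2 (502 CPM each) and SRSF2-OE replicate 3 (524 CPM) lay little above it. Medians and counts of the list without single libraries are not given here. PHGDH stood at 3.08 and 9.97 CPM in Control and at 80.8, 70.6, 68.0 and 52.2 CPM in SRSF6-OE replicate 3, SRSF9-OE replicate 3, SRSF2-OE replicate 2 and SRSF9-OE replicate 2, against 7.08 to 28.9 CPM in the other overexpression libraries. CBS was at most 1.77 CPM in any library.

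Cytosolic aminoacyl-tRNA synthetases, which charge tRNAs, lay above Control in 16, 15, 17, 15 and 16 of 17 tested members in SRSF2-OE, SRSF4-OE, SRSF6-OE, SRSF9-OE and TRA2B-OE, with medians of 0.42, 0.35, 0.59, 0.44 and 0.32. GARS and CARS, for glycine and cysteine, were highest and DARS and NARS, for aspartate and asparagine, lowest. GARS stood at 77.0 and 89.7 CPM in Control, 616 CPM in SRSF6-OE replicate 3, 396 CPM in SRSF2-OE replicate 2 and 325 CPM in SRSF9-OE replicate 3, and at 81.6 to 186 CPM elsewhere. Summed over the list, synthetases reached 4980 CPM in SRSF6-OE replicate 3, 4252 in SRSF2-OE replicate 2, 3915 in SRSF9-OE replicate 3 and 3335 in SRSF9-OE replicate 2, and 2242 to 3019 CPM in the other 10 libraries.

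Amino acid transporters lay above Control in 7, 7, 8, 8 and 8 of 10 members, with medians of 0.33, 0.31, 0.87, 0.33 and 0.22. SLC6A9, a glycine transporter, and SLC1A4, a neutral amino acid transporter, were highest, and SLC3A2 and SLC7A5, partners in a leucine transporter, were lowest. SLC6A9 held 5.01 and 7.46 CPM in Control and 95.6, 57.6 and 41.8 CPM in SRSF6-OE replicate 3, SRSF2-OE replicate 2 and SRSF9-OE replicate 3. SLC3A2 went another way: its 5 highest libraries were TRA2B-OE replicate 3 (550 CPM), SRSF2-OE replicates 3 and 1 (521 and 511 CPM), SRSF6-OE replicate 3 (476 CPM) and Control replicate 1-2 (417 CPM), and SRSF2-OE replicate 2, high in CHAC1, held 307 CPM.

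Of 18 tested other ATF4 and CHOP targets, 6, 8, 11, 9 and 5 lay above Control in the same order of groups, with medians of -0.26, -0.16, 0.10, -0.03 and -0.15, so this list had no common direction. Scaled by library totals alone, a choice made after seeing the data, the median of all tested genes in SRSF6-OE moved from -0.03 to -0.18 and that of these targets from 0.10 to -0.06, while the medians of the amino acid synthesis, synthetase and transporter lists kept their sign in all 5 groups. STC2, a secreted glycoprotein, and EIF4EBP1, an inhibitor of cap-dependent translation, were highest. STC2 held 12.9 and 11.9 CPM in Control and 168, 166 and 160 CPM in SRSF6-OE replicate 3, SRSF2-OE replicate 2 and SRSF9-OE replicate 3. The autophagy receptor gene SQSTM1 and the pro-apoptotic BCL2L11 were lowest, with log2 fold changes of -1.07 and -1.27 in SRSF4-OE and -0.53 and -1.11 in SRSF6-OE.

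**Figure D4:**
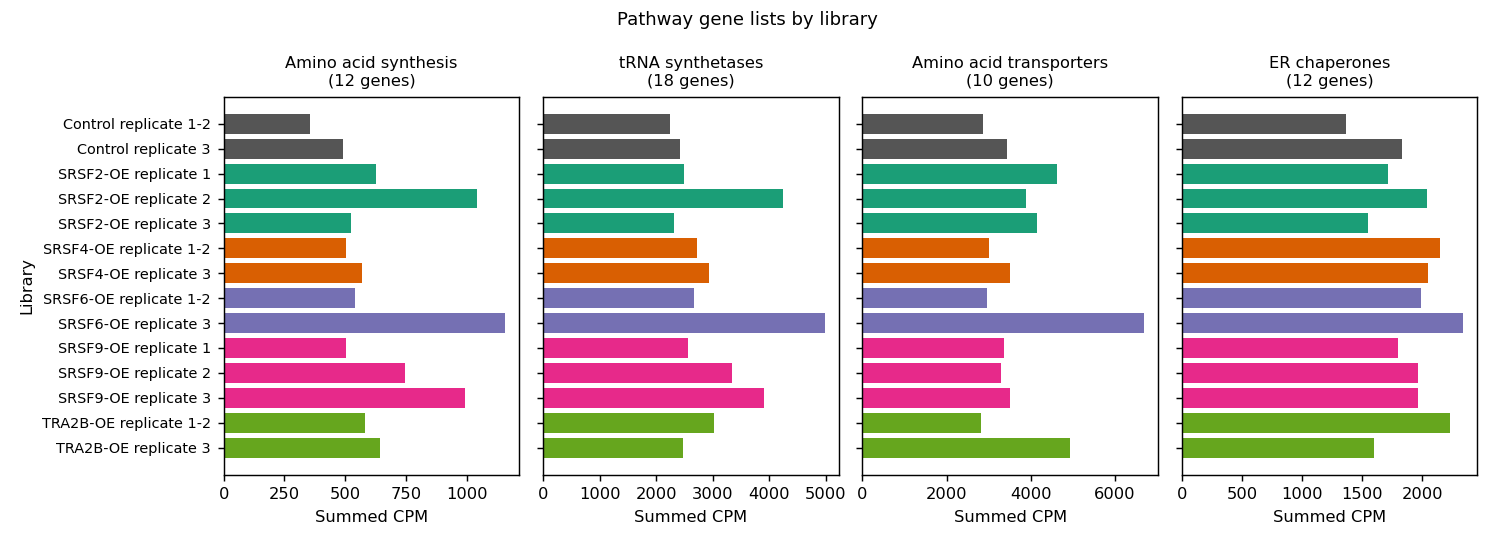
Summed CPM of the listed genes for amino acid synthesis (serine, glycine, one-carbon and proline), aminoacyl-tRNA synthetases, amino acid transporters and endoplasmic reticulum (ER) chaperones in each library, coloured by group. SRSF2-OE replicate 2, SRSF6-OE replicate 3 and SRSF9-OE replicate 3 are the 3 highest for synthesis and for synthetases. Transporters are highest in SRSF6-OE replicate 3 (6686 CPM), TRA2B-OE replicate 3 (4930 CPM) and SRSF2-OE replicate 1 (4626 CPM). Of these sums SLC7A5 alone makes up 1437, 2704 and 2498 CPM in that order. Chaperones range from 1364 to 2341 CPM, with SRSF6-OE replicate 3 the highest.

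Upstream of ATF4, genes of the eIF2 kinases, phosphatase, exchange factor and eIF2 itself had medians of 0.11, 0.10, 0.16, 0.18 and 0.12, with 8, 10, 9, 11 and 9 of 13 above Control. EIF2AK3, which encodes the ER stress kinase PERK, and PPP1R15B, the constitutive relative of PPP1R15A, were lowest, and EIF2S2 and EIF2B2 highest. EIF2AK3 stood at 30.7 CPM in Control replicate 1-2 and 30.9 CPM in SRSF6-OE replicate 3, the libraries that also led in ATF3 and PPP1R15A, and at 15.8 to 21.0 CPM in the other 12. Of the bZIP and other transcription factors of the pathway, 3, 2, 4, 3 and 5 of 10 lay above Control (medians -0.16, -0.45, -0.09, -0.17 and -0.03), with XBP1 and ATF5 highest and NUPR1 and CEBPA lowest. XBP1, a factor of the unfolded protein response, stood at 148, 157 and 117 CPM in SRSF2-OE replicate 2, SRSF6-OE replicate 3 and SRSF9-OE replicate 3, and at 35.2 to 83.2 CPM elsewhere.

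ER chaperones lay above Control in 8, 7, 9, 8 and 8 of 10 tested members, with medians of 0.20, 0.34, 0.47, 0.23 and 0.30; SDF2L1 and PDIA4 were highest and DNAJB9 and CRELD2 lowest. Immediate early genes, the other class to which ATF3 belongs, lay above Control in 13, 10, 11, 10 and 13 of 17 tested members (medians 0.52, 0.28, 0.32, 0.19 and 0.25). By mean log2 fold change JUN, EGR2, KLF6, EGR1, DUSP1 and CYR61 lay below Control, as ATF3 did, and the rest above. KLF6, named after its values were seen, stood at 514 and 246 CPM in Control replicates 1-2 and 3. It held 553 CPM in SRSF6-OE replicate 3 and 122 to 312 CPM in the other overexpression libraries. FOSL1 and GADD45B were highest, and JUN and EGR2 lowest. JUN stood at 137 and 91.4 CPM in Control and at 162 CPM in SRSF2-OE replicate 2, with 27.3 to 98.2 CPM in the other overexpression libraries. The p53 targets had medians of -0.0044, 0.0042, -0.11, -0.04 and 0.03, changing sign in SRSF4-OE (to -0.03) and TRA2B-OE (to -0.02) when scaled by library totals, with BAX and GADD45A highest and TP53INP1 and XPC lowest.

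The single Control library in which ATF3 was high was also among the libraries most often highest over all genes. Control replicate 1-2 was the highest of the 14 libraries for 16.5% of all genes tested and SRSF6-OE replicate 3 for 16.7%, while SRSF2-OE replicate 2 was for 12.4% and SRSF9-OE replicate 3 for 3.85%. The genes whose levels were most like ATF3 over the 14 libraries, by r on log2(CPM + 0.5) among 11638 genes, were ZNF260 (0.95), ZBTB10 (0.95), MAP1LC3B (0.95), OSBPL8 (0.93), WDR86 (0.93), FNIP1 (0.92), ZBTB21 (0.92) and ARID4B (0.92). The lowest were DDOST (-0.92), ACAD9 (-0.91) and TUFM (-0.91), and PPP1R15A ranked 132. MAP1LC3B, an autophagy gene, is also a listed ATF4 target. Each of the 8 shared ATF3's highest library, which their choice by r with ATF3 favoured, so nothing is read from it. ZBTB10 held 54.8 CPM in Control replicate 1-2, 22.0 in Control replicate 3, 23.1 in SRSF6-OE replicate 3 and 8.88 to 17.9 CPM elsewhere. Over the 12 overexpression libraries their r with ATF3 was 0.53 (ZBTB21) to 0.81 (ARID4B and ZBTB10). Fibroblast or stroma genes, mostly COL1A1 and DCN, summed to 550 CPM in Control replicate 1-2, the highest of a range that began at 160 CPM, with COL1A2 at 0 in 11 libraries and COL3A1 at 0 in 8; their part in the ATF3 level was not tested. Basal epithelial genes summed to 53437 CPM in SRSF6-OE replicate 3 and 21283 to 41072 CPM in the others, and their part in that library's stress gene levels was not tested.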

How the data were processed

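RNA from 18 samples was sequenced as stranded mRNA, per the labels' protocols. The authors' deposited table holds raw counts per gene; Trimmomatic 0.36, STAR 2.5.1b, Subread, featureCounts and build GRCh37 stand in the submitters' processing notes. Use of strand in counting was not given in the sources used here. Gene names and overlaps came from GENCODE 29, by gene ID (55910 of 60252 named).

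Lanes of a library were summed. edgeR 4.0.16 (R 4.3.3, TMM, filterByExpr with minimum count 10) fitted 14 libraries with group and label set as terms, leaving 7 residual degrees of freedom and a common biological coefficient of variation of 0.318. A call was a Benjamini-Hochberg adjusted p under 0.05 over 21326 genes. DESeq2 1.42.0, limma-voom (limma 3.58.1) and other settings were alternatives. Correlations used 100000 two-sided permutations. Nothing in the labels says that replicates came from separate cultures; p-values reflect only how these libraries varied, which may be technical. Scripts were tested on simulated data.

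The 10 genes, the lists and the tests were chosen with earlier results of these data known. Named besides the 10 were the 2 highest and 2 lowest of each list by mean log2 fold change. So were the 8 genes with highest and 3 with lowest r with ATF3 (mean CPM at least 3). A few others were named after their values were seen, and levels were shown for a selection. PECAM1 was not matched by symbol.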

Additional observations from a re-analysis of the deposited data

How the results depend on the processing

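Of 1150 fold changes of the 10 genes recomputed under other settings, 59 moved by more than the spread between replicates and 39 changed sign. None of the 115 of ATF3 changed sign, but ATF3 was chosen by that sign, so nothing is read from this. Their size depended on which Control library was kept, and that of SRSF6-OE nearly vanished without Control replicate 1-2. The count of partners called against Control was 0 in every group with edgeR, and became 1 with DESeq2, 2 with lanes as separate replicates and 3 with only the groups compared in SRSF4-OE, 1 with lanes as separate replicates and 1 with only the groups compared in SRSF6-OE, and 2 with lanes as separate replicates in TRA2B-OE. Lanes of a library are not independent replicates, so nothing is read from the counts with lanes apart. The count of partners called stayed at 0 with a replicate block in place of the label set and without each library in turn. It also did with SRSF2-OE replicate 1 and TRA2B-OE replicate 3 both left out, an alternative chosen after seeing the data. Whether replicate numbers pair the libraries was left undecided. Of 31 same-numbered pairs, deviations from group means correlated above 0.1 in 15 (-0.512 to 0.543), and 6 of 14 libraries lay closest to their own number. This check cannot exclude pairing, because summed libraries were all numbered 1 and deviations within a group of 2 mirror each other. The count of partners correlated with ATF3, 1 over 14 libraries, was 0 in the 10 numeric libraries and 0 without the 2 libraries farthest from the median of ATF3; PPP1R15A kept r of 0.58 to 0.86 and passed in 24 of 26 settings over the 14 libraries or parts of them. Outside that range, r was 0.42 (permutation p = 0.23) over the 12 overexpression libraries without the 2 farthest from their median of ATF3. The 26 settings share most of their libraries, and nearly all keep Control values, which chose ATF3. Their number is therefore not independent support for the relation.
Correlations with ATF3 whose sign differed from that of r over all 14 libraries follow, and the cause was not tested. No changed value of r passed the threshold. Spearman's rho of ALDH1L2 over the 12 overexpression libraries did, at 0.78 (permutation test, adjusted p = 0.017), where r over all 14 was -0.02. Its rho over all 14 was 0.42, so rho itself kept its sign. Over the 12 overexpression libraries the changed values of r were -0.034 for DDIT3, 0.61 for TRIB3 and 0.64 for ALDH1L2, and over the 10 numeric libraries -0.097, 0.45 and 0.52. By Spearman's rho TRIB3 was at 0.15 and ALDH1L2 at 0.42, and without the 2 farthest libraries at 0.22 and 0.35. With lanes apart ATF4 was at -0.013, ASNS at -0.013 and CEBPB at -0.082. Centred within groups TRIB3 was at 0.016 and SESN2 at 0.079, and with the replicate block ALDH1L2 was at 0.058. A pseudocount of 0.1 gave 0.0036 for ALDH1L2, a pseudocount of 2 gave -0.040 for CEBPB, and DESeq2 size factors gave -0.00041 for CEBPB. With libraries left out, 1 at a time or the pair above, r ran from -0.072 to 0.38 for ATF4, -0.47 to 0.42 for TRIB3, -0.12 to 0.43 for ASNS, -0.14 to 0.32 for CEBPB and -0.15 to 0.53 for ALDH1L2. In each the highest value was without Control replicate 1-2. CHAC1 was left out of these. Other limits are the single high Control library behind each ATF3 fold change and the 2 libraries in 4 of the 6 groups.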

Other observations

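Genes with levels most like those of CHAC1 were ranked after its values were seen, so they are given as levels only. ADM2, a secreted peptide of the adrenomedullin family, led the ranking and stood at 27.3 CPM in SRSF2-OE replicate 2, 21.3 CPM in SRSF9-OE replicate 3 and 20.1 CPM in SRSF6-OE replicate 3. SRSF9-OE replicate 2 held 4.46 CPM of ADM2 and no other library more than 1.15 CPM. The alanyl-tRNA synthetase gene AARS, ATF4 itself, the alanine aminotransferase gene GPT2 and the transcription factor gene BHLHE40 followed. BHLHE40 stood at 281, 214 and 235 CPM in the same 3 libraries, at 99.6 CPM in SRSF9-OE replicate 2 and at 38.8 to 64.3 CPM elsewhere. At the other end were ERI2, FAM111A and MDM1. FAM111A, a gene needed at replication forks, stood at 29.6, 35.9 and 45.6 CPM in SRSF2-OE replicate 2, SRSF9-OE replicate 3 and SRSF6-OE replicate 3, its 3 lowest libraries, against 50.6 to 113 CPM in the rest. The same libraries therefore held both the highest and the lowest levels of these genes, whatever construct they carried, and what set them apart was not tested.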
